A study of Mus musculus with 24 samples.

Results

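The genes described here are 37 genes of the amino acid response and of cytosolic tRNA charging: ATF4 and its partner transcription factors, controls of translation and of mTORC1, enzymes of amino acid and one-carbon synthesis, amino acid transporters, and 12 cytosolic aminoacyl-tRNA synthetases. For each gene, the probe set annotated to that gene alone with the highest mean over all 24 arrays was taken, without regard to diet. Of the 37 genes, 34 had a mean log2 level of at least 4.07, the median over all probe sets, and were tested among 11645 genes and 2194 probe sets with no gene listed, 13839 features in all. The remaining 3, Atf3, Cth and Slc7a11, lay below this level on average and are given as levels only. The mice were females of strain NMR-1, aged 8 weeks at the start, and brain RNA (right hemisphere) was taken after 2 weeks on a diet. The groups of 6 animals ate laboratory pellets (Pellet), the vegetables, fruit and yogurt given to captive chimpanzees (Chimpanzee), cooked food from a staff cafeteria (HumanCafe) or McDonald's meals (FastFood). The labels name no transgene or drug in any group. Each mouse gave 1 array, and 3 mice of every diet fell into each of 2 labelled processing batches.

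When amino acids run short, uncharged tRNAs activate the kinase GCN2, which phosphorylates eIF2. General translation then slows while the mRNA of ATF4 is translated more, and ATF4, paired with C/EBP proteins, raises the transcription of synthetases, transporters and biosynthetic enzymes. The same arm is reached from stress of the endoplasmic reticulum, mitochondria or heme supply, and in brain it is known from synthetase disorders and from disorders of serine synthesis, on which neurons depend through astrocytes.

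The C/EBP-ATF response element, to which ATF4 binds with a C/EBP partner, reads TGATGCAA in its usual form. The promoters of these genes were searched for this run of letters. RefSeq promoters (GRCm38.p6, from 250 bases before to 50 bases after the gene start, 300 bases in all) were found for 30 of the 37 genes. Searched on both strands, TGATGCAA was present in 8 of these 30 and in 1.03% of all 27025 genes with a promoter in the table. The looser form TGATGNAA, which includes the first, was present in 11 of the 30 and in 4.51% of all genes. Below, each match is in capitals with 20 bases on each side, 5′ to 3′ on the strand of the gene, so that TTGCATCA is the element on the opposite strand.
Atf3 (chr1:191183416-191183463, minus strand): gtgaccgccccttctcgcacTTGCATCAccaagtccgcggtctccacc
Chac1 (chr2:119351029-119351076, plus strand): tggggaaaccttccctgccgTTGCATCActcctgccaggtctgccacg
Slc7a11 (chr3:50443652-50443699, minus strand): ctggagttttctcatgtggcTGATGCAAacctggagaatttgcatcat
Nupr1 (chr7:126625553-126625600, minus strand): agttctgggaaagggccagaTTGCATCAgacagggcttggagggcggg
Yars (chr4:129189886-129189933, plus strand): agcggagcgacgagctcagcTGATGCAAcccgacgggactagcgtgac
Aars (chr8:111033710-111033757, plus strand): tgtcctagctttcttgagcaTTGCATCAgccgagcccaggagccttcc
Iars (chr13:49682117-49682164, plus strand): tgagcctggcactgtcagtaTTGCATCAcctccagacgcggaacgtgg
Tars (chr15:11399646-11399693, minus strand): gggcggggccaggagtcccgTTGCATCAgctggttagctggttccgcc
Asns (chr6:7693205-7693252, minus strand): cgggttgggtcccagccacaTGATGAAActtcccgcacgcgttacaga
The Asns match is of the looser form only, as are those of Trib3 and Gars. Slc7a11 holds a further copy on the opposite strand within the printed stretch. A match is a run of letters and was not measured as a binding site.

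The deposited values are log2 levels, so that a difference of 1 is a doubling. The arrays had medians of 4.02 to 4.32, and each array's median correlation with the others was 0.968 to 0.989, except for 1 array, Pellet batch 2 replicate 1, at 0.820. The arrays also differed in the standard deviation (SD) of their log2 levels. On the 3 diets other than Pellet it was 1.81 to 2.02 in batch 1 and 2.01 to 2.06 in batch 2. On Pellet it was 1.95 to 2.04 in batch 1 and 1.58 to 1.84 in batch 2. The study's methods leave out 1 Pellet brain array for RNA degradation without naming it, so that all 6 were kept here, and Pellet results are given with and without the array that stood apart where it changes them. That array was the lowest of 24 for 20 of the 34 tested genes and the highest for 5, with no matching share over all features given. The 18S ribosomal RNA signal of the 3 diets other than Pellet was 5.87 to 6.58 in batch 1 and 4.88 to 5.15 in batch 2, whereas Pellet arrays ran the other way, with 4.96 to 5.51 in batch 1 and 5.92 to 6.42 in batch 2. The tissue label was borne out by its markers: the mean log2 level of 6 neuronal genes was 9.29 to 10.92 over all arrays, and that of 4 liver genes was 3.75 to 5.12, the highest in Pellet batch 2. In RNA of a whole hemisphere, fewer cells of a type and less RNA per cell cannot be told apart.

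None of the 34 genes passed the test for a difference by diet over both batches. In limma's F test of the 4 diets 0 passed at an adjusted p under 0.05, where 0.0434% of all features did, and 3 (Slc38a2, Nupr1 and Cebpb) had an unadjusted p under 0.05, where 5.34% of all features did. Between the human diets (HumanCafe and FastFood together) and the chimpanzee diet, 0 of the 34 and 0% of all features passed, 0 of the 34 had an unadjusted p under 0.05 (2% of all features), and the median log2 difference of the 34 was -0.02, beside 0.01 over all features. FastFood and HumanCafe gave 0 of 34 (0% of all features), with 1 gene at an unadjusted p under 0.05 (0.658% of all features). Pellet gave 0 of 34 against each other diet, where 0.00723% of features passed against Chimpanzee, 0% against HumanCafe and 0.0361% against FastFood. At an unadjusted p under 0.05 these comparisons held 4, 3 and 6 of the 34 genes, beside 9.73%, 5.47% and 21.5% of all features. The 3 Pellet comparisons share the same 6 Pellet arrays.

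**Figure D1:**
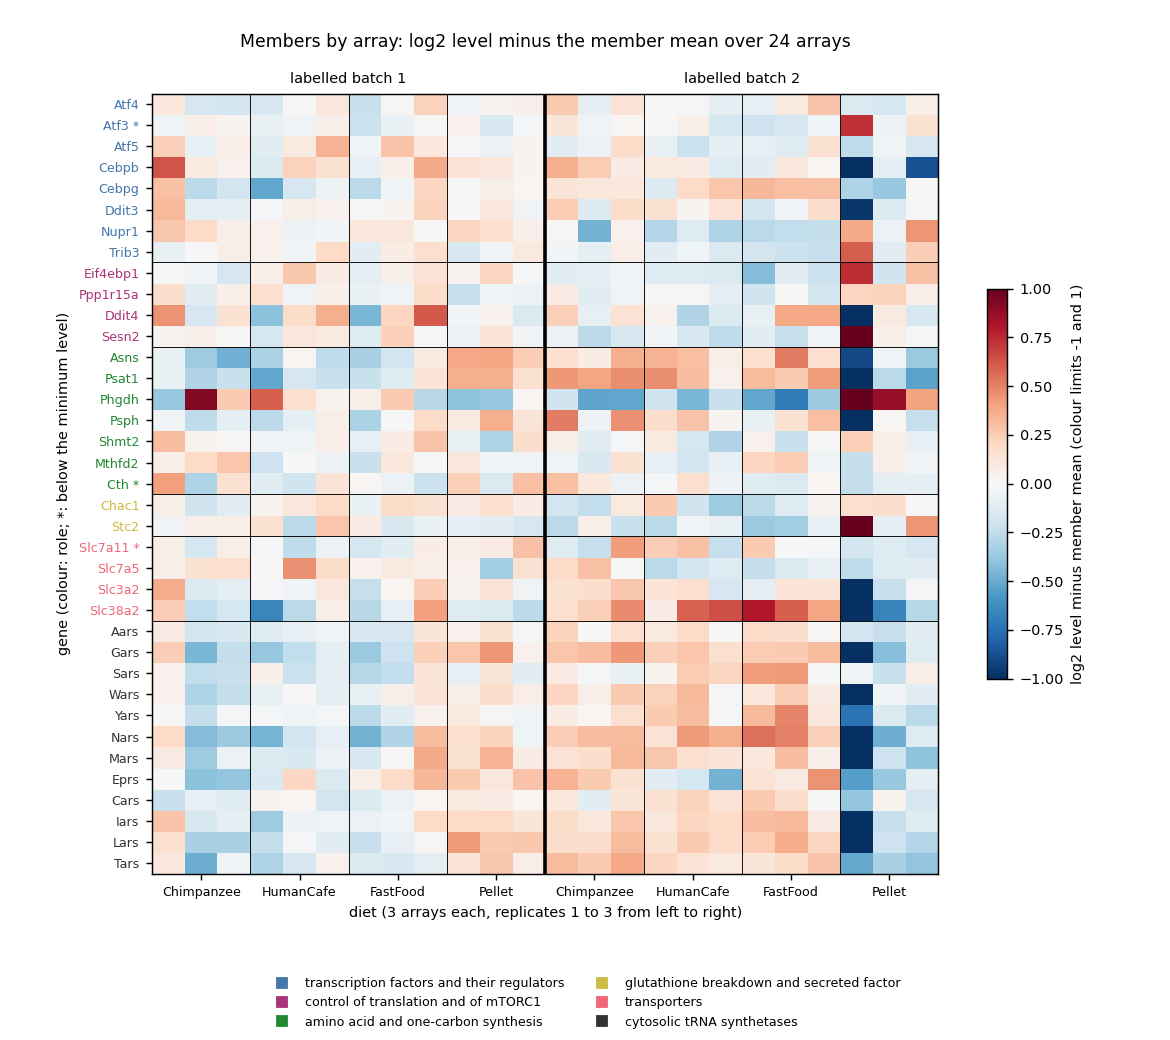
Each cell is the log2 level of 1 gene (rows, grouped by role) on 1 array (columns, by labelled batch and diet) minus that gene's mean over 24 arrays. Colours are full at -1 and 1, and * marks genes below the minimum level. Most of the 12 synthetases (bottom), Asns and Psat1 are redder in batch 2 than in batch 1 on the 3 diets other than Pellet and bluer on Pellet. The Pellet array that stood apart (the first Pellet column of batch 2) is the lowest for 20 of 34 genes, with no matching share over all features given.

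Among the transcription factors, Atf4, the central activator, had similar medians on the 4 diets at its brightest probe set. It ran from 8.74 to 9.20 on Chimpanzee (median 8.94), from 8.77 to 9.05 on HumanCafe (median 8.92), from 8.71 to 9.22 on FastFood (median 8.99) and from 8.76 to 8.99 on Pellet (median 8.93). All 4 ranges overlapped. The human diets differed from the chimpanzee diet by 0.00 (95% interval -0.17 to 0.18), so that a difference in Atf4 mRNA of more than 0.18 in either direction lay outside the interval. The 2 other Atf4 probe sets above the minimum level differed more between diet means, from 6.15 on Pellet to 6.74 on FastFood in one and from 5.91 on FastFood to 6.69 on Pellet in the other, in opposite directions. ATF4 is set largely by translation, which an array does not read. Ddit3 (CHOP), a stress factor that joins ATF4 in prolonged stress, ran from 6.84 to 7.29 on Chimpanzee (median 7.02), from 6.96 to 7.12 on HumanCafe (median 7.02), from 6.78 to 7.19 on FastFood (median 6.98) and from 6.0 to 7.07 on Pellet (median 6.95). Of all 24 arrays, the one that stood apart was the lowest by a wide gap. Trib3, a pseudokinase induced by ATF4 and CHOP that damps them, lay near the minimum level for testing, at 4.24 to 4.39 on Chimpanzee (median 4.31), 4.18 to 4.52 on HumanCafe (median 4.29), 4.09 to 4.49 on FastFood (median 4.17) and 4.16 to 4.92 on Pellet (median 4.36). Atf3, another early stress factor, lay at 3.09 to 4.03 over all arrays.

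Cebpb, a C/EBP partner of ATF4, had the smallest unadjusted p of the 34 against Chimpanzee. Its level was 5.60 to 6.19 on Chimpanzee (median 5.73), 5.42 to 5.79 on HumanCafe (median 5.65), 5.44 to 5.94 on FastFood (median 5.60) and 4.12 to 5.70 on Pellet (median 5.53). The low values belonged to 2 Pellet arrays of batch 2, at 4.12 and 4.69, and the other 4 Pellet arrays lay at 5.47 to 5.70, among those of the other diets. Pellet minus Chimpanzee was -0.60 ± 0.19 (SE; limma, unadjusted p = 0.0042, adjusted p = 0.45). It was -0.16 in batch 1 alone, -1.03 in batch 2 alone and -0.40 without the array that stood apart.

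Nupr1, a small chromatin protein of the stress response whose promoter holds the element, had the smallest unadjusted p among the genes with a higher mean on Pellet. It ran from 4.45 to 5.19 on Chimpanzee (median 4.97), from 4.61 to 4.96 on HumanCafe (median 4.83), from 4.66 to 5.03 on FastFood (median 4.81) and from 4.86 to 5.36 on Pellet (median 5.11). The groups overlapped, with 1 Chimpanzee array at 4.45 apart from the other 5. Pellet minus HumanCafe was 0.33 ± 0.11 (SE; limma, unadjusted p = 0.0062, adjusted p = 0.59) and 0.27 without the Pellet array that stood apart. The means on Pellet and HumanCafe were 5.07 and 4.91 in batch 1 and lay further apart, at 5.17 and 4.68, in batch 2. Another Nupr1 probe set of nearly the same mean level (4.91) differed less, with means of 5.00 on Pellet and 4.87 on HumanCafe. Atf5 and Cebpg, a further activator of the family and a C/EBP dimer partner, had differences between -0.24 and 0.20 in all 5 contrasts of diets. Cebpg ran from 5.93 to 6.49 on Chimpanzee (median 6.31), from 5.68 to 6.48 on HumanCafe (median 6.10), from 5.93 to 6.53 on FastFood (median 6.45) and from 5.82 to 6.26 on Pellet (median 6.19), with overlap of all 4 diets.

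**Figure D2:**
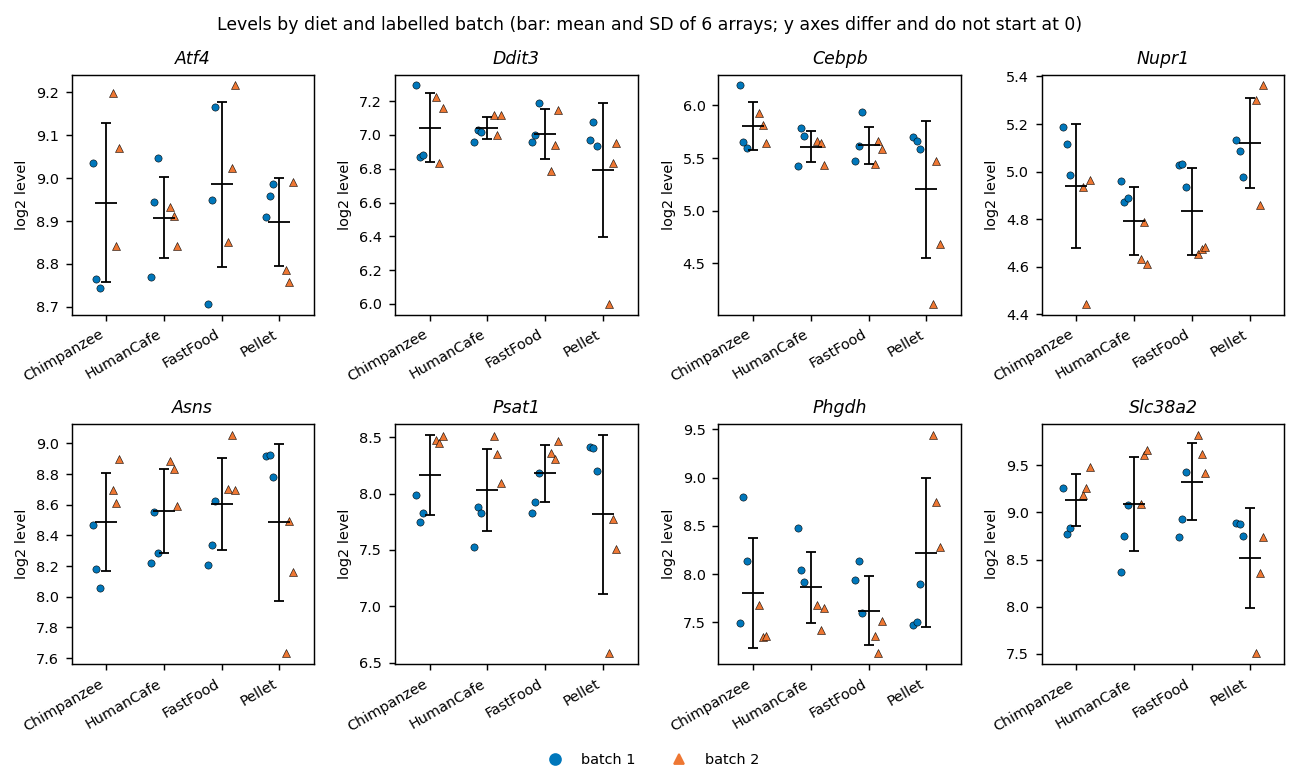
Log2 level (y axes differ between panels) of 8 genes by diet, with 1 point per mouse, circles for batch 1 and triangles for batch 2; bars give the mean and SD of 6 arrays. For Asns and Psat1 the triangles lie above the circles on the 3 diets other than Pellet and below them on Pellet, Phgdh mostly runs the opposite way, and the diets overlap in every panel.

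Of the 4 genes that control translation or mTORC1, 0 passed in the comparisons of diets over both batches. Eif4ebp1 (4E-BP1), which binds the cap-binding protein eIF4E, ran from 4.75 to 4.91 on Chimpanzee (median 4.84), from 4.76 to 5.18 on HumanCafe (median 4.88), from 4.48 to 5.06 on FastFood (median 4.81) and from 4.71 to 5.65 on Pellet (median 5.04). Its Pellet minus FastFood difference was 0.29 ± 0.12 (SE; limma, unadjusted p = 0.031, adjusted p = 0.23). Most of it came from batch 2, with means of 5.19 on Pellet and 4.66 on FastFood, beside 4.99 and 4.95 in batch 1. Another Eif4ebp1 probe set, barely above the minimum level, had nearly equal means of 4.13 on Pellet and 4.12 on FastFood. With the probe set used, the difference was 0.16 without the Pellet array that stood apart. Sesn2, a leucine sensor that inhibits mTORC1, ran from 4.52 to 5.01 on the other diets and from 4.72 to 5.78 on Pellet. The value of 5.78 was again that array, and the next Pellet value was 4.91. Ppp1r15a (GADD34), which reverses eIF2 phosphorylation, and Ddit4 (REDD1), a further mTORC1 inhibitor, differed by -0.03 (95% interval -0.19 to 0.14) and -0.05 (95% interval -0.43 to 0.32) between the human and chimpanzee diets. Ppp1r15a lay within 5.76 to 6.21 on all 4 diets with the lowest median on FastFood, at 5.93, and Ddit4 had medians of 6.88 to 7.27.

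Among the enzymes, Asns, which makes asparagine and is a classic target of the response, ran from 8.06 to 8.90 on Chimpanzee (median 8.54), from 8.22 to 8.88 on HumanCafe (median 8.57), from 8.21 to 9.05 on FastFood (median 8.66) and from 7.63 to 8.93 on Pellet (median 8.64). Its human minus chimpanzee difference was 0.10 ± 0.17 (SE; 95% interval -0.26 to 0.46). The 4 ranges overlapped, and within each diet the arrays of the 2 batches lay apart. Psat1, the transaminase of serine synthesis, ran from 7.75 to 8.51 on Chimpanzee (median 8.21), from 7.53 to 8.51 on HumanCafe (median 7.99), from 7.83 to 8.47 on FastFood (median 8.25) and from 6.58 to 8.41 on Pellet (median 7.99). Phgdh, the dehydrogenase at the head of the same pathway, ran from 7.35 to 8.80 on Chimpanzee (median 7.59), from 7.42 to 8.47 on HumanCafe (median 7.80), from 7.18 to 8.13 on FastFood (median 7.56) and from 7.47 to 9.44 on Pellet (median 8.09). Its interval was the widest of the 34, from -0.59 to 0.47 around a human minus chimpanzee difference of -0.06. For Psat1 and Phgdh, too, all 4 diets overlapped. All 4 probe sets of Phgdh are of a type that can take up related transcripts, as are those used for Nupr1, Shmt2 and Wars. In the batch comparison the 3 further probe sets of Phgdh gave 0.11, -0.27 and -0.22, beside -0.59 for the probe set used. Psph, which releases serine, Shmt2 and Mthfd2, which feed one-carbon units into the mitochondrial folate cycle, differed between the human and chimpanzee diets by -0.06, -0.07 and -0.11, each with an interval that held 0. Another Mthfd2 probe set of nearly the same mean level (4.35) differed by 0.15, the opposite direction. Mthfd2 ran from 4.20 to 4.63 on Chimpanzee (median 4.46), from 4.15 to 4.35 on HumanCafe (median 4.27), from 4.13 to 4.61 on FastFood (median 4.40) and from 4.12 to 4.46 on Pellet (median 4.33), and was on average 0.15 higher on FastFood than on HumanCafe (limma, unadjusted p = 0.13, adjusted p = 1.00). Cth, which makes cysteine, lay at 3.18 to 3.90 over all arrays, below the level for testing.

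Chac1, which degrades glutathione and is strongly induced by ATF4, stayed low at 4.58 to 4.93 on Chimpanzee (median 4.68), 4.48 to 5.09 on HumanCafe (median 4.90), 4.56 to 5.01 on FastFood (median 4.81) and 4.82 to 5.00 on Pellet (median 4.95). Its human minus chimpanzee difference was 0.10 (95% interval -0.09 to 0.28), and its Pellet minus Chimpanzee difference was 0.21 ± 0.10 (SE; limma, unadjusted p = 0.058, adjusted p = 0.45). Stc2, a secreted glycoprotein of the stress response, ran from 4.33 to 4.97 on the other diets. On Pellet, 4 arrays lay at 4.52 to 4.60 and 2 of batch 2 at 5.14 and 6.19.

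Of the transporters, Slc38a2 (SNAT2), which imports neutral amino acids and is induced when they run short, had the largest differences of the 34 genes between Pellet and another diet. It ran from 8.77 to 9.49 on Chimpanzee (median 9.22), from 8.37 to 9.66 on HumanCafe (median 9.08), from 8.74 to 9.82 on FastFood (median 9.42) and from 7.50 to 8.89 on Pellet (median 8.74). The Pellet arrays of batch 1 lay at 8.75 to 8.89, within the HumanCafe and FastFood ranges. Those of batch 2 lay at 7.50, 8.36 and 8.74, and the values of 7.50 and 8.36 were below every array of the other diets. Pellet minus FastFood was -0.81 ± 0.23 (SE; limma, unadjusted p = 0.0021, adjusted p = 0.23), Pellet minus Chimpanzee was -0.61 (unadjusted p = 0.015, adjusted p = 0.45) and Pellet minus HumanCafe was -0.57 (unadjusted p = 0.022, adjusted p = 0.59). In batch 1 alone the last was 0.11, the opposite direction, and without the array that stood apart these latter differences were -0.37 and -0.33. The Pellet minus FastFood difference was -0.20 in batch 1 alone, -1.42 in batch 2 alone (-1.07 there without the array that stood apart) and -0.57 over both batches without that array (adjusted p = 0.46). Another probe set of Slc38a2 above the minimum level had its lowest mean on Pellet as well, at 5.93 beside 6.06 to 6.29.

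Slc3a2 (CD98), the heavy chain shared by several exchangers, ran from 8.23 to 8.75 on Chimpanzee (median 8.54), from 8.21 to 8.54 on HumanCafe (median 8.43), from 8.15 to 8.63 on FastFood (median 8.45) and from 7.37 to 8.51 on Pellet (median 8.35). The Pellet minus Chimpanzee difference of -0.31 became -0.14 without the array that stood apart, which held the 7.37. Slc7a5 (LAT1), a leucine exchanger that pairs with it at the blood-brain barrier, had the smallest unadjusted p of the 34 between the human and chimpanzee diets, at 0.09, with a difference of -0.16 (95% interval -0.34 to 0.03). It was 0.02 in batch 1 alone and -0.34 in batch 2 alone. Slc7a5 ran from 6.79 to 7.09 on Chimpanzee (median 6.95), from 6.52 to 7.25 on HumanCafe (median 6.73), from 6.55 to 6.89 on FastFood (median 6.78) and from 6.45 to 6.95 on Pellet (median 6.67), so that the highest and the lowest arrays were not of the Chimpanzee diet. Slc7a11 (xCT), the cystine importer, was below the level for testing at 3.26 to 3.91 on Chimpanzee (median 3.46), 3.24 to 3.78 on HumanCafe (median 3.45), 3.32 to 3.76 on FastFood (median 3.49) and 3.31 to 3.78 on Pellet (median 3.46).

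The 12 cytosolic synthetases, each of which loads 1 amino acid onto its tRNA (Eprs loads glutamate and proline), gave 0 calls in the comparisons of diets over both batches. Between the human and chimpanzee diets 8 of the 12 were higher and 4 lower, with differences from -0.07 for Tars to 0.13 for Sars. Sars had medians of 9.16 on Chimpanzee, 9.24 on HumanCafe, 9.26 on FastFood and 9.14 on Pellet, within a range of 8.91 to 9.62, and Cars had medians of 6.50, 6.68, 6.61 and 6.62, within 6.20 to 6.86. The interval of Sars ran from -0.07 to 0.32 and that of Cars, at 0.11, from -0.07 to 0.28. Between the 2 human diets 11 of the 12 were higher on FastFood, with a median of 0.04 beside 0.05 over all features, and Eprs was the only one of all 34 genes with an unadjusted p under 0.05. Eprs ran from 6.45 to 7.13 on HumanCafe (median 6.78) and from 6.98 to 7.38 on FastFood (median 7.09), and the difference was 0.35 ± 0.16 (SE; limma, unadjusted p = 0.035, adjusted p = 1.00). It was 0.22 in batch 1 alone and 0.48 in batch 2 alone. Another Eprs probe set of nearly the same mean level (6.81) had means of 6.84 on HumanCafe and 6.98 on FastFood. The probe set used had 6.78 and 7.14, and a further probe set, of lower level, had 5.82 and 5.99. The other probe sets thus gave smaller differences in the same direction. Yars ran from 7.05 to 7.45 on Chimpanzee (median 7.30), from 7.25 to 7.60 on HumanCafe (median 7.28), from 7.03 to 7.78 on FastFood (median 7.37) and from 6.56 to 7.39 on Pellet (median 7.20). Its Pellet minus FastFood difference of -0.28 (limma, unadjusted p = 0.048, adjusted p = 0.23) was 0.13 in batch 1 alone, -0.69 in batch 2 alone and -0.15 without the array that stood apart.

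**Figure D3:**
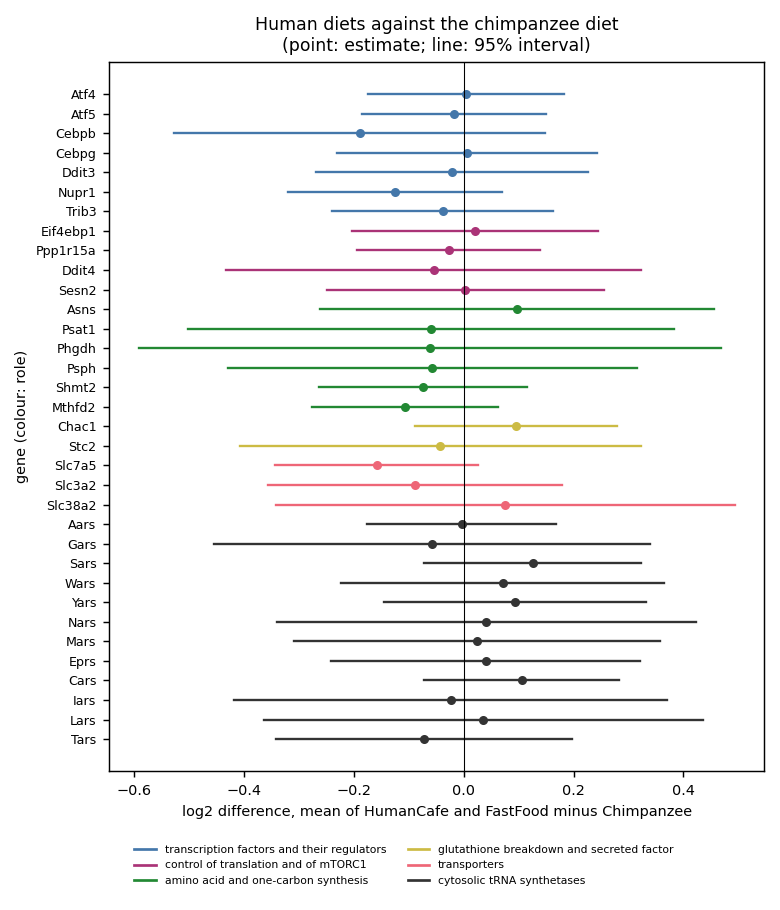
Log2 difference of each of the 34 tested genes between the mean of the HumanCafe and FastFood diets and the Chimpanzee diet (points) with its 95% interval (lines), coloured by role. Every interval holds 0, and the estimates lie between -0.19 for Cebpb and 0.13 for Sars.

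Within each batch, the Pellet comparison took opposite directions for the synthetases. Against FastFood, all 12 were higher on Pellet in batch 1 (median log2 difference 0.13, 0 passing the test) and all 12 were lower in batch 2 (median -0.65, 8 passing). Against Chimpanzee the medians were 0.28 (0 passing) and -0.66 (8 passing), and against HumanCafe 0.28 (0 passing) and -0.58 (7 passing). Over the 34 genes, 0 passed in batch 1 and 18 in batch 2 against FastFood, where 0.0939% and 58.7% of all features passed. Against Chimpanzee 0 and 15 passed (0.145% and 53% of all features), and against HumanCafe 1 and 13 passed (2.94% and 50.4% of all features). In batch 2 the genes were thus called no more often than features at large. Without the array that stood apart, batch 2 gave 16, 12 and 12 calls against FastFood, Chimpanzee and HumanCafe (50.9%, 42% and 41.1% of all features), and the synthetase medians were -0.46, -0.42 and -0.37, with 8, 7 and 7 passing. Psat1 was the 1 gene called in batch 1. In that batch it lay at 8.20 to 8.41 on Pellet and at 7.53 to 7.88 on HumanCafe.

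**Figure D4:**
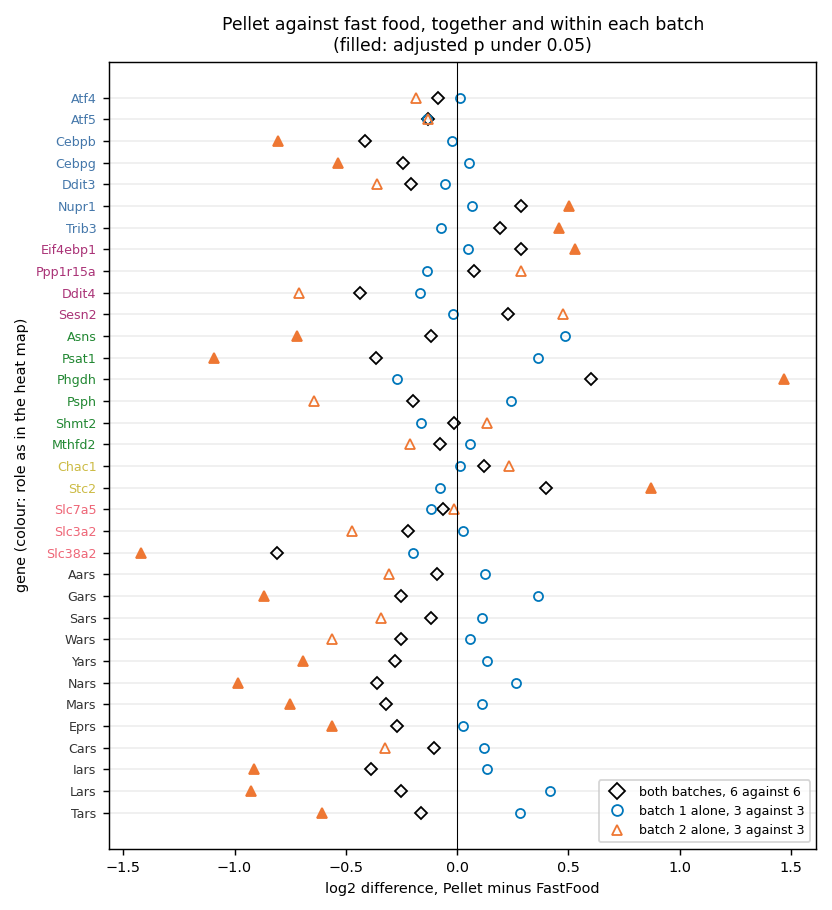
Log2 difference of Pellet minus FastFood for each gene (rows, by role) in both batches together (diamonds, 6 arrays against 6), in batch 1 alone (circles, 3 against 3) and in batch 2 alone (triangles, 3 against 3); filled symbols have an adjusted p under 0.05. The 12 synthetases, Asns and Psat1 lie right of 0 in batch 1 and left of 0 in batch 2, and Phgdh lies the opposite way.

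The labelled batches of the other 3 diets were then compared, with 9 arrays each. Of the 34 genes, 22 passed the test (16 higher and 6 lower in batch 2), where 49.7% of all features passed, 40.3% as higher and 9.46% as lower. Of the 12 synthetases 11 were called, all higher in batch 2, with a median of 0.25 beside 0.14 over all features. All 12 had a mean log2 level above 6, and with a minimum level of 6 the share of features called in either direction was 62.6%. Eprs, at 0.11, was not called. Of the enzymes, Asns, Psat1 and Psph were higher and Phgdh lower. Among the transcription factors Cebpg was higher and Nupr1 lower, while the mRNA of Atf4 differed by 0.08 (95% interval -0.08 to 0.25) and that of Ddit3 by 0.01 (95% interval -0.14 to 0.17). Of the rest, Slc38a2 was higher, and Slc7a5, Eif4ebp1, Sesn2 and Stc2 were lower.

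The largest differences were those of Slc38a2, Nars, Psat1, Asns and Gars upward and of Phgdh, Nupr1, Slc7a5, Eif4ebp1 and Stc2 downward. Slc38a2 ran from 8.37 to 9.43 in batch 1 (median 8.84) and from 9.09 to 9.82 in batch 2 (median 9.49), a difference of 0.55 ± 0.12 (SE; limma, adjusted p = 6e-04). Psat1 ran from 7.53 to 8.18 in batch 1 (median 7.83) and from 8.09 to 8.51 in batch 2 (median 8.44), a difference of 0.53 ± 0.07 (SE; adjusted p = 1.3e-05). In both genes the batches overlapped, for Psat1 by 1 array of each. Asns, at 8.06 to 8.62 in batch 1 (median 8.28) and 8.59 to 9.05 in batch 2 (median 8.70), differed by 0.45 ± 0.08. Nars, at 8.99 to 9.78 in batch 1 (median 9.16) and 9.61 to 10.01 in batch 2 (median 9.78), differed by 0.54 ± 0.10. Gars, at 7.89 to 8.59 in batch 1 (median 8.10) and 8.51 to 8.78 in batch 2 (median 8.63), differed by 0.45 ± 0.09. In these 3 genes, too, the batches overlapped, and 0 of the 34 genes had batches that did not overlap at all, as 5.07% of all features did.

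Downward, Phgdh ran from 7.50 to 8.80 in batch 1 (median 8.04) and from 7.18 to 7.68 in batch 2 (median 7.42), a difference of -0.59 ± 0.13 (SE; limma, adjusted p = 7e-04). Phgdh and Psat1, neighbours in serine synthesis, thus moved in opposite directions, as read by the probe sets used. Nupr1 ran from 4.87 to 5.19 in batch 1 (median 4.98) and from 4.45 to 4.96 in batch 2 (median 4.67), a difference of -0.29 ± 0.07. The differences of Slc7a5 (-0.20), Eif4ebp1 (-0.19) and Stc2 (-0.19) were smaller, and the calls of Slc7a5 and Stc2 were each lost when 1 of several arrays was left out (limma, adjusted p of up to 0.08 for Slc7a5 without HumanCafe batch 1 replicate 2, and of up to 0.10 for Stc2 without HumanCafe batch 1 replicate 3).

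The direction of several of these genes depended on scaling. After quantile normalization of all 24 arrays, the median over all features moved from 0.14 to -0.03, the share of calls that were higher in batch 2 from 81% to 41.9%, and the median of the 34 genes from 0.10 to -0.14. The 34 genes then gave 19 calls (42.3% of all features), of which 5 were higher and 14 lower. Of the 22 genes called with the deposited values, Aars, Sars and Wars changed sign, and Aars was then called lower (-0.14, adjusted p = 0.026). Atf4, Ddit3, Eprs and Slc3a2, which had not been called, changed sign too, and Atf4, Ddit3 (-0.20, adjusted p = 0.013) and Slc3a2 (-0.26, adjusted p = 0.0012) were then called lower. Called in 1 direction with the deposited values, after quantile normalization and after centring on array medians were Gars, Lars, Nars, Tars and Psat1 as higher and Phgdh, Nupr1 and Eif4ebp1 as lower. Asns, at 0.45 with the deposited values, was 0.10 after quantile normalization (adjusted p = 0.21), and Slc38a2, at 0.55, was 0.16 (adjusted p = 0.12). Atf4 was 0.08 with the deposited values and -0.30 after quantile normalization (adjusted p = 0.0021).

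**Figure D5:**
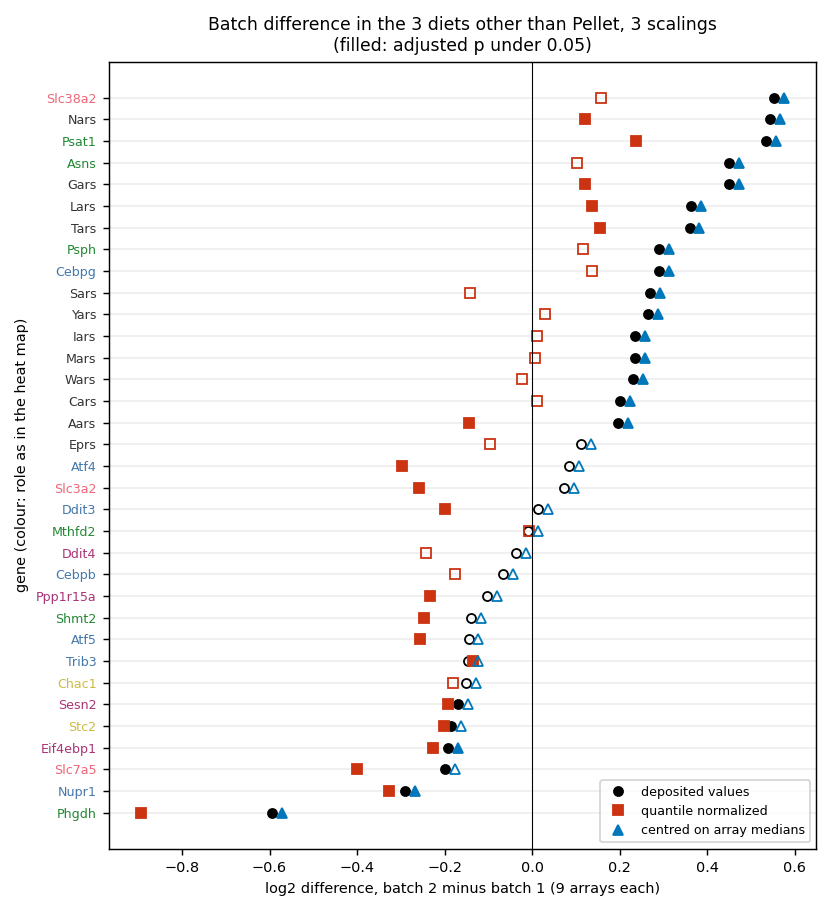
Log2 difference of batch 2 minus batch 1 over the 3 diets other than Pellet (9 arrays each) for the 34 genes, with the deposited values (circles), after quantile normalization (squares) and after centring each array on its median (triangles); filled symbols have an adjusted p under 0.05. Gars, Lars, Nars, Tars and Psat1 stay filled to the right of 0 under all 3 scalings, and Phgdh, Nupr1 and Eif4ebp1 to the left.

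Markers of brain cell types moved in the same comparison. In batch 2, 5 of 6 neuronal genes (median difference 0.61), 5 of 6 astrocyte genes (0.66) and 4 of 5 oligodendrocyte genes (0.47) were called higher, as were 2 of 6 microglial and 2 of 4 endothelial genes, where 40.3% of all features were. Of 6 genes of choroid plexus and ependyma 3 were called higher and 1 lower. The mean level of the 6 neuronal genes was 9.78 to 10.79 in batch 1 and 10.52 to 10.92 in batch 2, and that of the 6 astrocyte genes 9.15 to 9.84 and 9.69 to 10.21. Of the liver markers, 2 of 3 were called lower, at levels near the lower limit. The part of these shifts, of the 18S signal and of the SD of the arrays in the differences of the 34 genes was not tested.

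Pellet arrays ran against the other diets. Of the 34 genes, 17 were higher in batch 2 on each of the 3 other diets, and all 17 were lower in batch 2 on Pellet. A further 11 were lower in batch 2 on each of the 3 other diets, and 9 of these were higher on Pellet. Batch 2 minus batch 1 for Psat1 was 0.63 on Chimpanzee, 0.57 on HumanCafe, 0.40 on FastFood and -1.05 on Pellet, and for Phgdh it was -0.68, -0.56, -0.54 and 1.20. Without the array that stood apart the Pellet values were -0.70 and 0.89, all 17 genes were still lower in batch 2 on Pellet, and 7 of the 11 were higher. No share over all features is given for these directions, so they cannot be read as particular to these genes. The interaction of diet and batch passed the test for 14 of the 34 genes, of which 9 are synthetases, where 50.7% of all features passed. Without the Pellet array that stood apart 12 genes passed, beside 37.5% of all features. When the 2 batch labels were swapped on Pellet arrays only, 0 of the 34 genes and 0% of all features passed limma's test, with 3 genes at an unadjusted p under 0.05. Over the 18 arrays of the other 3 diets 0 genes and 0% of all features passed, with 2 genes at an unadjusted p under 0.05. Whether the labels or the arrays account for this was not tested, and the labels were kept as deposited.

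Of 80 further genes of the pathway, 68 were tested, the rest being below the minimum level or without a probe set of their own, and over both batches 0 of them passed limma's test in the comparisons of diets. At an unadjusted p under 0.05 there were 8 for the 4 diets, 3 between the human and chimpanzee diets, 0 between FastFood and HumanCafe, and 6, 9 and 18 for Pellet against Chimpanzee, HumanCafe and FastFood, beside 5.34%, 2%, 0.658%, 9.73%, 5.47% and 21.5% of all features in the same order. In the batch comparison 38 of the 68 passed, 34 as higher and 4 as lower (median 0.18), where 49.7% of all features passed, 40.3% as higher. Among these, 6 of 12 genes of the upstream step (the eIF2 kinases, Gcn1, Impact and subunits of eIF2 and of its exchange factor eIF2B), 9 of 11 genes of endoplasmic reticulum stress, which include its chaperones, and 8 of 10 genes of amino acid sensing by mTORC1 were higher. Of 10 further cytosolic synthetases and their scaffold factors 4 were higher and 1 lower, and of 13 mitochondrial synthetases 4 were higher and 2 lower. Of 12 other ATF4 targets 3 were higher and 1 lower, with a median of 0.03 beside 0.14 over all features.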

How the data were processed

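The authors deposited log2 expression levels of 45101 probe sets for 24 arrays (Affymetrix whole-genome mouse arrays), computed by rma in the affy package, with log transformation and quantile normalization stated; the deposited arrays still differ in their quantiles. Control probe sets (64), those of several genes (932) and those with a mean under 4.07 were left out, names were updated through RefSeq (34741 of 34945 probe sets of 1 gene matched), and 1 probe set per gene was kept, giving 11645 genes and, with 2194 probe sets without a listed gene, 13839 features. Diets were compared in limma 3.58.1 (R 4.3.3) over all 24 arrays with batch as a term, the batches over the 18 arrays of the other 3 diets with diet as a term, and the interaction over all 24. P-values were Benjamini-Hochberg adjusted over all features, with a threshold of 0.05. Alternatives changed the minimum level, normalization, array weights, batch term, arrays or test. The fits were also run on simulated data. These had the same batch difference on every diet and no array apart, so that they do not test the fits under the interaction seen here. The genes and lists were chosen with earlier results of these data known. Genes are named by rule: those passing in a diet comparison, the 3 with the smallest p in each direction of each diet contrast, the 5 with the largest called batch difference in each direction, and Atf4, Ddit3, Trib3, Asns, Phgdh, Psat1, Slc3a2, Slc7a11 and Chac1. Promoters were searched in Python 3.11.15, and figures drawn with matplotlib 3.10.9. The number of arrays limits the precision, as does the interaction left in the spread of the diet fits.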

Additional observations from a re-analysis of the deposited data

Results flagged for a closer look

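In 5 of 100 groups of 6 arrays (25 named genes on 4 diets), 1 array lay far from the other 5. The genes share the same arrays, so the groups are not independent and their count cannot be set against chance. Of these, 4 were on Pellet, where the array apart was batch 2 replicate 1: Ddit3 at 6.0 and Slc3a2 at 7.37 as the lowest, Sesn2 at 5.78 and Stc2 at 6.19 as the highest. On Chimpanzee, Nupr1 had its lowest array at 4.45.

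The batch difference differed among the diets, by limma's interaction test, for 14 of the 34 genes, where 50.7% of all features passed. The adjusted p was 0.00065 for Psat1, 0.0013 for Tars, 0.0016 for Asns, 0.0019 for Phgdh, 0.0026 for Lars, 0.0034 for Gars, 0.0038 for Eprs, 0.0049 for Nars, 0.0058 for Mars, 0.013 for Slc38a2, 0.013 for Yars, 0.026 for Iars, 0.028 for Psph and 0.042 for Wars. Over the 18 arrays of the other 3 diets, 0 of the 14 were called, with 2 of the 34 genes at an unadjusted p under 0.05.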

How the results depend on the processing

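In the comparisons of diets, the count of genes called was 0, as over both batches, with each array left out in turn, with no minimum level, with every probe set kept, after quantile normalization or centring, with other estimates of the spread, without a batch term, with 18S in its place, and in the fit on the compared diets alone. It was also 0 at a minimum level of 6, where 23 genes were tested, and by the methods' two-way test, which leaves out features with an interaction and so tested 16 to 34 genes. The replicate block (batch and replicate number) also gave 0 genes in each, and 1 feature for the 4 diets. Arrays of 1 number deviated together no more than others (median correlation -0.02 over 36 pairs, beside -0.02 over 72 pairs of other numbers). The correlations spread widely, from -0.51 to 0.48 and from -0.61 to 0.61, so that a pairing of animals by number was neither seen nor excluded. The study spread littermates evenly over the diets, and the labels name no litter. Array weights, lowest for the 3 Pellet arrays of batch 2, gave 2 genes for the 4 diets, and 2, 4 and 2 for Pellet against Chimpanzee, HumanCafe and FastFood, where 7.05%, 12.2%, 14.4% and 2.54% of all features passed. Batch 2 alone gave 12, 15, 13 and 18 in the same order, 13, 12, 12 and 16 with the Pellet array of lowest correlation also left out, and batch 1 alone 1 against HumanCafe. The shares of all features were 43.2%, 53%, 50.4% and 58.7% in batch 2, and 39.3%, 42%, 41.1% and 50.9% with that array out. In batch 1 the share against HumanCafe was 2.94%. With the Pellet batch labels exchanged, Pellet against FastFood gave 2 genes (Phgdh and Slc38a2), where 12.3% of all features passed. It gave 1 when that array was also left out, beside 5.14% of all features. Leaving out that array along with the exchange or in batch 2 alone was chosen after seeing the data. The interaction gave 9 genes after quantile normalization (24.9% of all features) and 0 with array weights, with the exchange, with the exchange and that array left out, and over 18 arrays. With 1 array left out, the batch comparison gave 19 to 23 genes and the interaction 11 to 20; these calls were spread over 6167 to 7773 and 4743 to 8686 features.

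Over all features, the 4 diets gave 6 calls, and 10 with every probe set kept, 2 after quantile normalization, 975 with array weights, 0 by the methods' two-way test, 2 without a batch term, 10 with 18S, 27 in batch 1, 5977 in batch 2 (5444 with that array out), 19 with the exchange and 39 when the array of lowest correlation was left out too (1 to 8 with 1 array left out). Human minus Chimpanzee gave 0, and 1 after quantile normalization, 24 with array weights, 2 with 18S, 6 in batch 1, 7 over the compared diets, 3 and 13 with the exchange and with the array also out, and 4 with that array alone out (0 to 4 with 1 array left out). Pellet minus Chimpanzee gave 1, and 0 at a minimum of 6, by the two-way test and over the compared diets, 8 after quantile normalization and with 18S, 1689 with array weights, 4 with a trend in the spread, 5 without a batch term, 20 in batch 1, 7338 in batch 2 (5806 with that array out), and 21 and 16 with the exchange (1 to 6 with 1 array left out). Pellet minus HumanCafe gave 0, and 1998 with array weights, 407 in batch 1, 6980 in batch 2 (5688 with that array out) and 1 with the exchange and that array out. Pellet minus FastFood gave 5, and 9 with every probe set kept, 8 after quantile normalization, 351 with array weights, 0 by the two-way test and over the compared diets, 19 with 18S, 13 in batch 1, 8127 in batch 2 (7042 with that array out), and 1706 and 712 with the exchange (4 to 9 with 1 array left out). The batch comparison and the interaction gave 11338 and 11318 of 21996 with every probe set kept, and the interaction 3452 after quantile normalization, 5 with array weights, 0 with the exchange, 1 with that array also out and 0 over 18 arrays.

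Among the named genes, human minus Chimpanzee turned for Slc7a5 in batch 1 (0.0189) and Mthfd2 in batch 2 (0.0255). Pellet minus Chimpanzee turned for Sesn2 with array weights (-0.0538) and in batch 1 (-0.0192). Pellet minus HumanCafe turned with array weights for Sesn2 (-0.0664), Eif4ebp1 (-0.066) and Yars (0.0369), and in batch 1 for Eif4ebp1 (-0.0566), Slc38a2 (0.11), Cebpb (0.0093) and Yars (0.0474). Pellet minus FastFood turned with array weights for Phgdh (-0.17) and Yars (0.0121), and in batch 1 for Phgdh (-0.27) and Yars (0.13). With single arrays left out, no named difference turned, and of the named batch calls those of Slc7a5 (9 arrays) and Stc2 (12 arrays) were each lost. The arrays were, for both, Chimpanzee batch 2 replicate 3, FastFood batch 2 replicates 1 and 2, HumanCafe batch 1 replicate 3 and HumanCafe batch 2 replicates 1 and 3; for Slc7a5 also FastFood batch 1 replicate 2, HumanCafe batch 1 replicate 2 and HumanCafe batch 2 replicate 2; and for Stc2 also Chimpanzee batch 1 replicates 2 and 3, Chimpanzee batch 2 replicate 1, FastFood batch 1 replicates 1 and 3 and HumanCafe batch 1 replicate 1. The cause of these changes was not tested. Low signal kept Atf3, Cth and Slc7a11 from being tested.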

Other observations

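The 8 genes whose promoter holds TGATGCAA were set beside the 22 whose promoter in the table does not. In the batch comparison, 5 of 6 tested genes with the element passed (4 higher and 1 lower, median 0.22), and 11 of 22 without it did (8 higher and 3 lower, median 0.04), where 49.7% of all features passed. The 4 higher genes were the synthetases Aars, Iars, Tars and Yars. Of all 12 synthetases 11 were called, so that the element and the role cannot be told apart here. After quantile normalization the differences of these 4 genes were -0.14, 0.01, 0.15 and 0.03. Between the human and chimpanzee diets, 0 genes passed in either set, with medians of -0.01 and -0.03. The sets were compared after both were known, and no test of the difference was made.

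Of 18 genes with more than 1 probe set above the minimum level, 11 had batch differences of 1 sign in all of them and 7 (Atf4, Cebpb, Cebpg, Eprs, Mthfd2, Phgdh and Slc38a2) had both signs. Atf4 ranged from -0.60 to 0.08 and Slc38a2 from -0.10 to 0.55, so that for these 2 the probe set of highest mean decided the direction. Asns (0.37 and 0.45), Nars (0.54 and 0.67) and Psat1 (0.25 and 0.53) did not turn with the probe set.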
